A study of Bos taurus with 23 samples.

Results

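A group of 89 bovine genes was high together in some pieces of endometrium and low together in others. The group was chosen by expression in 6 of 23 explants. A gene belonged to it if its mean level over all 23 libraries was at least 1 CPM (the usual read count scaled to its library's total) and if the lowest of 3 high libraries was at least 6 times the highest of 3 low libraries. Of the 18897 genes in the table, 13511 reached that mean level and 89, or 0.659% of the 13511, met the whole rule. When the high and low libraries were exchanged, 1 gene met it.

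The 23 libraries came from the intercaruncular part of bovine endometrium, which lies between the sites of placental attachment and carries the glands, collected in the mid luteal phase. Each explant weighed 50 to 80 mg, was cut with an 8 mm biopsy punch, rested in medium for 1 to 5 h and was then cultured for 6 h. Control explants had RPMI medium alone (n = 6), and IFNT explants had medium with recombinant ovine interferon tau, the pregnancy recognition signal of ruminants, at 100 ng per mL (n = 6). AI explants had a Day 15 conceptus from a blastocyst produced in vivo (n = 4), and IVF explants had a Day 15 conceptus from a blastocyst produced in vitro (n = 7). Of the conceptuses 6 were male and 5 were female. Libraries are named here by group and by the number written after U in the title, which is read as the uterus although the labels do not say so. The titles of the 4 AI explants share 1 further code and those of the IVF explants carry 5, which the labels do not explain. Explants of a group have different numbers, several numbers recur across groups, and p-values measure the spread between these explants only.

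The wall of the uterus is layered. A sheet of luminal epithelium faces the lumen, glands run down from it through the stroma, blood and lymph vessels and immune cells lie among them, and the smooth muscle of the myometrium lies beneath. A punched piece holds whatever layers the punch reached, and a bulk library averages over all of them. In such a library more cells of a type and more RNA per cell cannot be told apart. Which cells express the 89 genes could not be checked, because the Ensembl identifiers of the table matched none of the symbols in the reference used here, and neither the endometrium's own markers nor those of muscle, vessel or immune cells could be read. The genes are therefore described by their levels, and 4 of them by identifier.

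The 3 high libraries were IFNT 2, IVF 1 and IVF 5, and the 3 low ones were Control 3, AI 1 and IVF 2. Uteri 1 and 2 thus each supplied a high and a low library. The ratio of the lowest high to the highest low level had a median of 11.2 over the members with a read in a low library, 31 members reached 20, and 2 members had no read in any low library. Just inside the threshold lay ratios of 6.10, 6.18 and 6.38, and just outside it 5.98, 5.87 and 5.84. With low levels taken as no smaller than 3 reads, a member without a read there had a ratio of 5.88, under the threshold. These levels chose the genes and are given as a description. Everything tested below was read in the other 17 libraries, of which 5 were Control, 5 IFNT, 3 AI and 4 IVF.

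ENSBTAG00000015441 showed the pattern over the widest range of well-counted levels. It stood at 1453 CPM in IFNT 2, 1511 CPM in IVF 1 and 1256 CPM in IVF 5. It stood at 2.08 CPM in Control 3, 6.98 CPM in AI 1 and 3.39 CPM in IVF 2, so the rule's ratio was 180 (179.8 before rounding). Among the libraries that played no part in the choice, its Control levels were 515 CPM (Control 1), 190.2 CPM (Control 2), 29.4 CPM (Control 10), 20.6 CPM (Control 4) and 11.8 CPM (Control 5). Control explants given the same medium therefore differed by more than an order of magnitude. With IFNT it was at 348 CPM in uterus 10, 310.4 CPM in uterus 1, 133 CPM in uterus 4, 12.01 CPM in uterus 5 and 6.09 CPM in uterus 3. With AI it was at 84.4 CPM in uterus 4, 50.5 CPM in uterus 2 and 4.25 CPM in uterus 3. With IVF it was at 54.7 CPM in uterus 4, 21.0 CPM in uterus 10, 20.1 CPM in uterus 7 and 3.48 CPM in uterus 3. All 4 groups overlapped, and the explant of uterus 3 was the lowest of these 17 libraries in each of the IFNT, AI and IVF groups.

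ENSBTAG00000021306 had the largest ratio when low levels were taken as no smaller than 3 reads. Its levels were 159 CPM in IFNT 2, 72.6 CPM in IVF 5 and 30.2 CPM in IVF 1. In the low libraries it had 0 reads in Control 3, 0 in AI 1 and 2 in IVF 2. Of the 17 other libraries, IFNT 10 held 18.0 CPM, Control 2 held 12.6 CPM, Control 1 held 11.4 CPM and IFNT 1 held 7.00 CPM. It had 0 reads in Control 5, IFNT 5 and IVF 3. A total of 3 reads, the limit that a count of 0 allows, corresponds to 0.107 CPM in Control 5, 0.103 CPM in IFNT 5 and 0.0834 CPM in IVF 3, and covers counting error only. The same 4 libraries that led for ENSBTAG00000015441 thus led here, in another order.

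**Figure D1:**
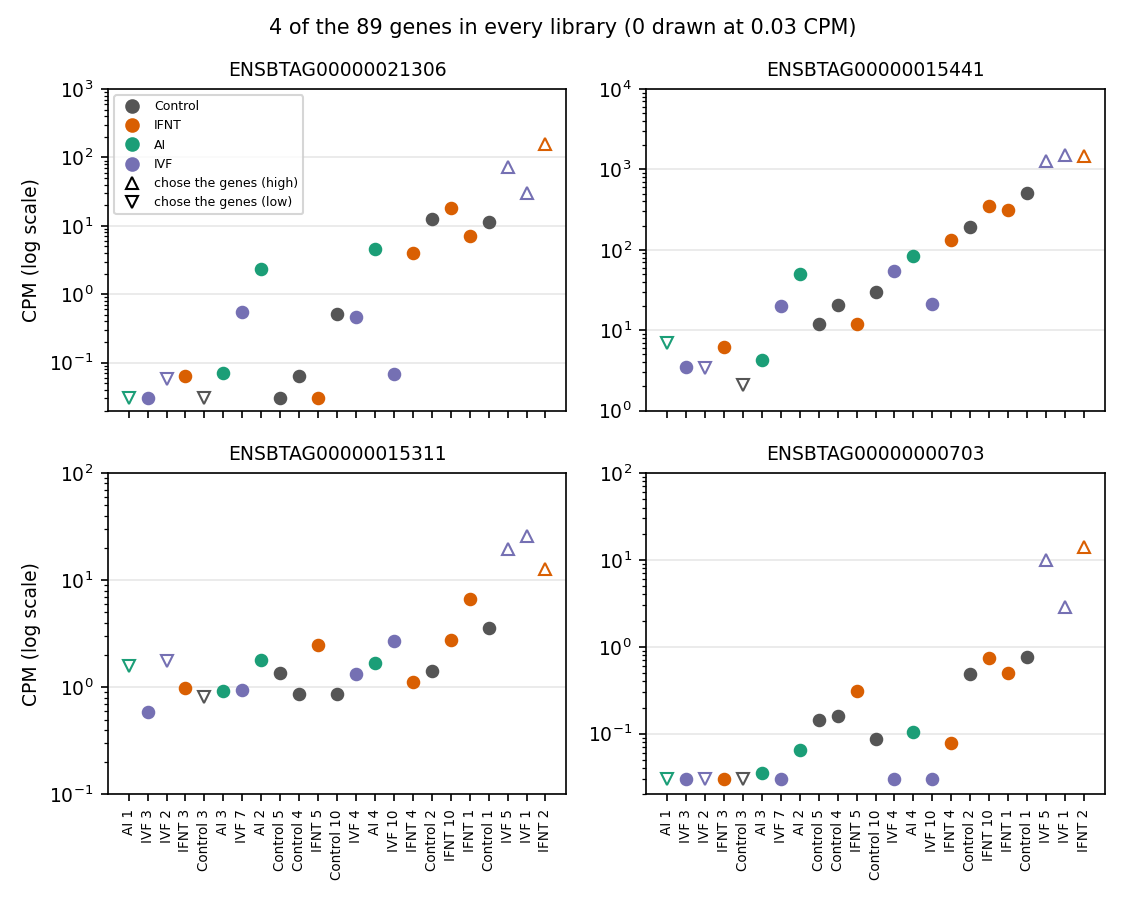
CPM of 4 of the 89 genes on log scales in all 23 libraries, ordered from left to right by the share of counts that the 89 genes took. Filled circles are the 17 libraries that did not choose the genes, triangles the 6 that did, and 0 is drawn at 0.03 CPM. ENSBTAG00000015441 lies between 2.08 and 6.98 CPM in the 6 libraries at the left and between 1256 and 1511 CPM in the 3 at the right, and ENSBTAG00000015311 stays within 0.584 to 6.61 CPM in the circles.

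Most members had fewer reads than the median gene, and a few were abundant. Mean levels ran from 1.02 to 1130 (1129.7) CPM with a median of 7.63 CPM, where the median of all 13511 genes was 20.8 CPM. There were 36 members under 5 CPM and 13 at 100 CPM or more. The 5 most abundant gave 57.6% of the members' summed mean CPM. Reads also scale with transcript length, which is not known here, so levels are compared across libraries and not between genes. The most abundant member stood at 4844 CPM in IFNT 2, 5176 CPM in IVF 1 and 3773 CPM in IVF 5. It stood at 409 CPM in Control 3, 218 CPM in AI 1 and 308 CPM in IVF 2. Over the 17 other libraries it ranged from 269.7 to 1916 CPM with a median of 593 CPM, and the highest was Control 1.

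Together the 89 genes took between 0.113% of the counts in AI 1 and 3.15% in IFNT 2. The other high libraries were at 3.096% in IVF 1 and 2.53% in IVF 5, and the other low ones at 0.132% in IVF 2 and 0.139% in Control 3. In the libraries that did not choose the genes the share was 1.31% in Control 1, 0.437% in Control 2, 0.298% in Control 10, 0.285% in Control 4 and 0.273% in Control 5. In IFNT explants it was 0.853% (IFNT 1), 0.711% (IFNT 10), 0.380% (IFNT 4), 0.297% (IFNT 5) and 0.135% (IFNT 3). In AI explants it was 0.366% (AI 4), 0.212% (AI 2) and 0.152% (AI 3), and in IVF explants 0.372% (IVF 10), 0.317% (IVF 4), 0.175% (IVF 7) and 0.114% (IVF 3). The share thus spanned 11.6-fold in the 17 libraries, every group overlapped every other, and IVF 3 and IFNT 3 lay within the range of the 3 low libraries. None of the 17 reached the 3 high ones.

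Explants of a single uterus were compared among the libraries that did not choose the genes. In uterus 1 the share was 0.853% with IFNT and 1.31% in Control, and in uterus 2 it was 0.212% with AI and 0.437% in Control. In uterus 10 it was 0.298% in Control, 0.372% with IVF and 0.711% with IFNT, a 2.39-fold range. In uterus 5 the Control and IFNT explants were at 0.273% and 0.297%. The explants of uterus 4 lay between 0.285% and 0.380%, and the 3 of uterus 3 between 0.114% and 0.152%. The libraries that chose the genes widened the range to 27.4-fold in uterus 1, 23.9-fold in uterus 2 and 9.26-fold in uterus 5, which follows from the choice.

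**Figure D2:**
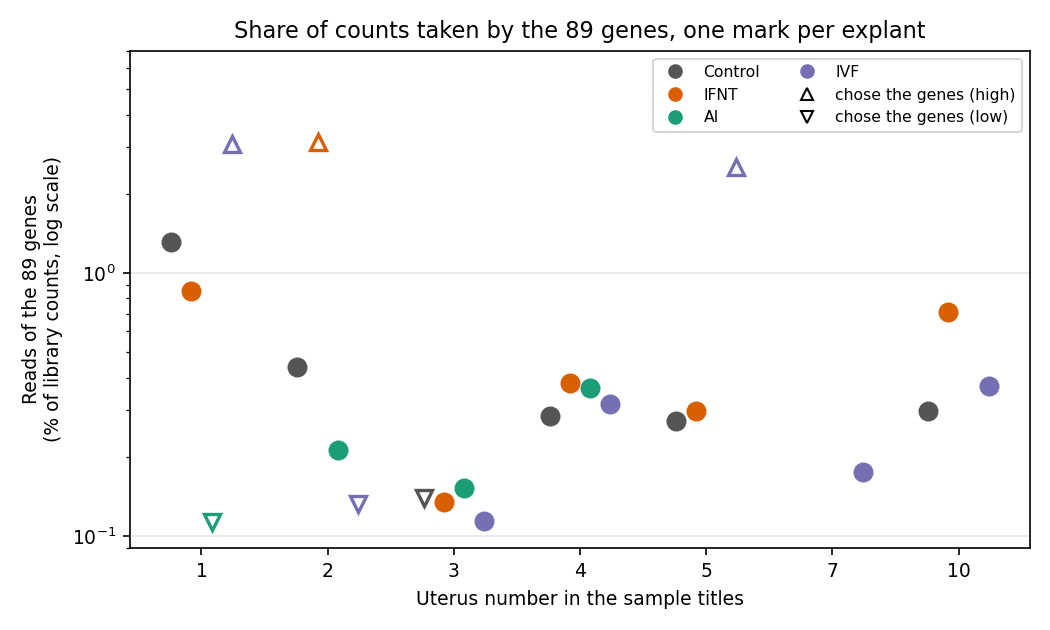
Percent of library counts taken by the 89 genes (log scale) against the uterus number, with 1 mark for each of the 23 explants coloured by treatment. Filled circles did not choose the genes and open triangles did. The triangles set the wide ranges of uteri 1, 2 and 5, and the circles run from 0.114% in uterus 3 to 1.31% in uterus 1.

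Total counts ran from 19461678 in Control 1 to 36730378 in IVF 7, and 14177 to 14682 genes had 10 or more reads. The high libraries had totals of 24416081 (IFNT 2), 30643295 (IVF 1) and 23505348 (IVF 5), and the low ones 32152427 (Control 3), 31789316 (AI 1) and 34231376 (IVF 2). Control 1, with the highest share of the 17, had the fewest counts and the fewest detected genes. The part of depth in the pattern was not tested.

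The members also moved together in the libraries that had not chosen them. Over those 17 libraries the 3916 pairs of members had a median Pearson r of 0.69 in log2 CPM, and 78.4% of pairs were at 0.5 or above. All pairs of the 13511 genes had a median of 0.08, with 12.2% at 0.5 or above (12.15% before rounding). One component held 71.7% of the members' variance and a second held 8.06%, where the first component of the 13511 genes held 24.2%. Several of the 17 libraries share a uterus and all share the normalization, so these are descriptions with n = 17 libraries. Without the 2 libraries of uterus 1 the median r of the member pairs was 0.54 over 15 libraries, against 0.08 for all pairs. Without uteri 1 and 10 it was 0.46 over 12 libraries, against 0.10 (0.095).

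**Figure D3:**
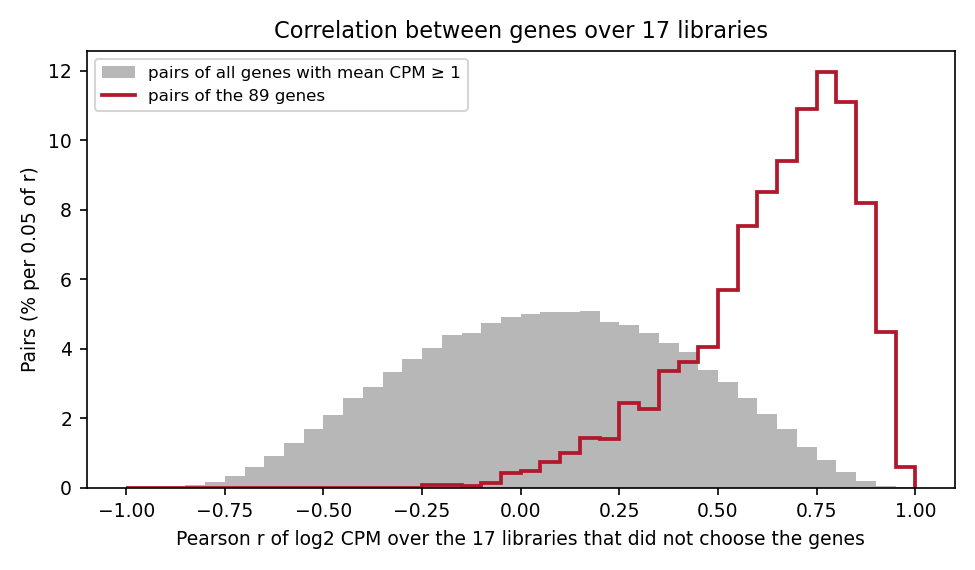
Distribution of Pearson r between genes over the 17 libraries that did not choose the 89 genes, as percent of pairs per 0.05 of r. The red line is the 3916 pairs of the 89 genes, with a median of 0.69, and grey is all pairs of the 13511 genes with a mean of at least 1 CPM, with a median of 0.08.

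A few libraries led in most members. Control 1 was the highest of the 17 in 66 of the 89 genes, IFNT 10 in 16, IFNT 1 in 5 and IFNT 5 in 2. Control 1 was among the 4 highest in 83 members, IFNT 1 in 78, IFNT 10 in 78 and Control 2 in 45. IFNT 4 and IFNT 5 followed in 12 each. Both explants of uterus 1 exceeded all 3 remaining explants of uterus 3 in 85 of the 89 genes, a pattern that 30.5% of the 13511 genes showed. Uterus 1 also supplied a high and a low choosing library and uterus 3 a low one, so this contrast is not independent of the choice. Among the libraries that chose the genes, IFNT 2 was the highest of all 23 in 39 members, IVF 1 in 35 and IVF 5 in 14, and the remaining 1 member peaked in Control 1.

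Members differed among themselves in how widely they ranged. The highest of the 17 libraries exceeded the lowest by at least 6-fold in 75 members, or 84.3%, against 11.6% of the 13511 genes, with levels under 3 reads set to 3 reads. The median range was 16.2-fold for members and 2.47-fold for all 13511 genes, and the members' ranges ran from 3.15-fold to 193-fold. The genes were not matched for level: the members' median level within the 17 libraries had a median of 2.26 CPM, and low counts add counting error to a range. The SD of log2 CPM over the 17 libraries had a median of 1.10 for members and 0.37 for all 13511 genes.

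**Figure D4:**
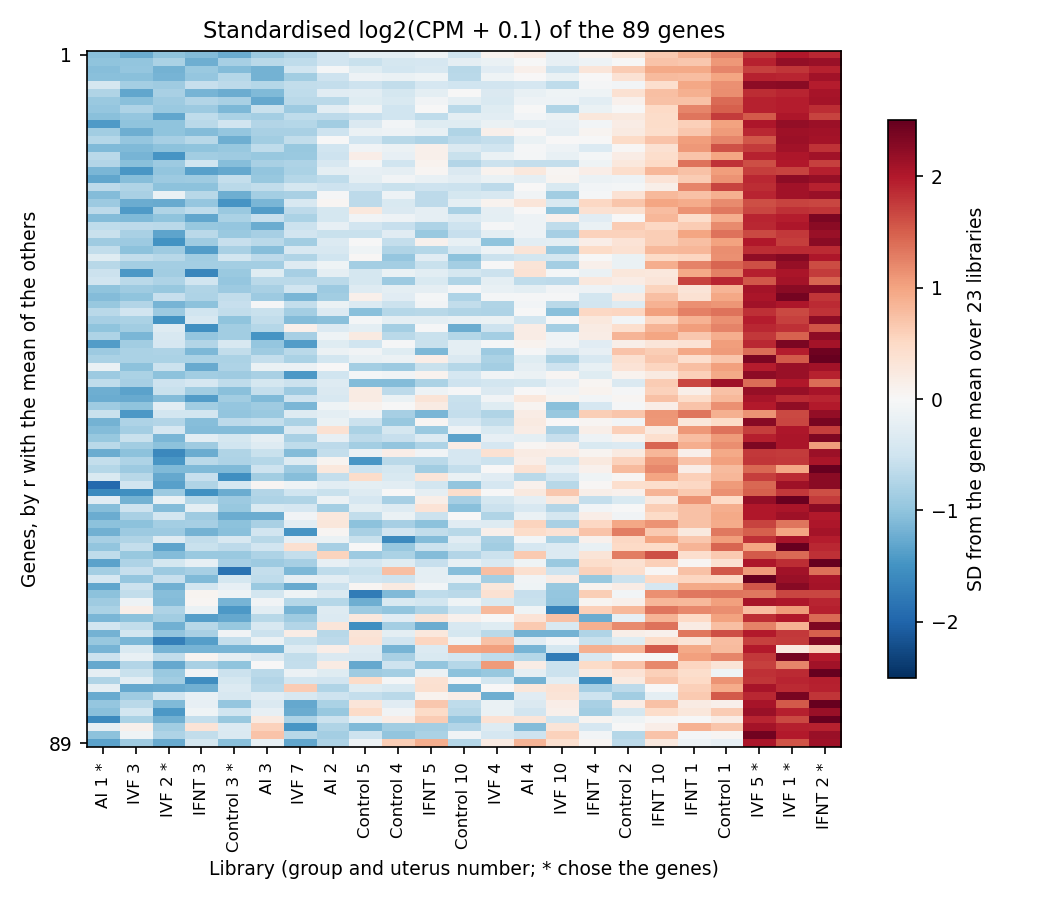
Standardised log2(CPM + 0.1) of the 89 genes (rows, from the highest to the lowest r with the mean of the other members) in 23 libraries (columns, ordered by the genes' share of counts), in SD from each gene's mean. Asterisks mark the 6 libraries that chose the genes, which the rule forces to the red and blue ends. Between them Control 1, IFNT 1, IFNT 10 and Control 2 are the reddest columns in most rows, and the bottom rows follow the order less closely.

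The correlation of each member with the mean of the other 88 ran from 0.24 to 0.97 over the 17 libraries, with a median of 0.84. It was at least 0.9 in 27 members and at least 0.7 in 70, and the median level of the 27 was 37.7 CPM. It was under 0.5 in 5 members, whose mean levels lay between 1.70 and 60.5 CPM. The loosest of them was also the nearest to the threshold among members with a read in a low library, with a ratio of 6.10. It stood at 17.7 CPM in IFNT 2, 12.1 CPM in IVF 1 and 16.9 CPM in IVF 5, and at no more than 1.99 CPM in Control 3, AI 1 and IVF 2. In the other 17 libraries it peaked at 7.71 CPM in IFNT 5, 7.48 CPM in AI 4 and 6.35 CPM in Control 4, while Control 1 had only 3.60 CPM. Its order of libraries was thus unlike that of the group.

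The proportions within the group shifted between libraries while its total moved 27.9-fold. The most abundant member gave 13.4% of the members' reads in IFNT 10 and 29.4% in Control 3, and lay between 14.9% and 16.7% in the 3 high libraries. The second most abundant gave 8.57% in IFNT 3 and 30.5% in IVF 10, and between 9.62% and 11.5% in the high libraries. The third gave 2.84% in IFNT 3 and 13.2% in IFNT 2, and the one ranked 5 gave 2.02% in IVF 2 and 11.4% in IFNT 2. The fourth gave 4.49% in IVF 2 and 17.6% in Control 1. Over the 3 high against the 3 low libraries, the third ranged from 9.44% to 13.2% against 3.08% to 4.90%, the one ranked 5 from 10.4% to 11.4% against 2.02% to 6.99%, and the first from 14.9% to 16.7% against 19.3% to 29.4%. The second ranged from 9.62% to 11.5% against 9.47% to 16.8% and the fourth from 6.90% to 10.5% against 4.49% to 7.85%, and these overlapped. The 6 libraries chose the members, so these shares are a description.

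Few genes outside the group tracked it closely. Of the 13422 other genes with a mean of at least 1 CPM, 5 correlated with the members' mean at 0.9 or above over the 17 libraries, from 0.90 to 0.94, and 167 at 0.7 or above. The closest, at r = 0.94, had a mean of 179 CPM and a ratio of 4.68 in the choosing libraries, short of the threshold. Of the 5, 3 had a ratio of at least 3. In the opposite direction 17 genes reached -0.7 and 0 reached -0.9. The 17 were higher in the 3 low libraries than in the 3 high ones by a median of 1.36-fold in group means (1.365 before rounding).

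Uteri were compared in a model of all genes with treatment group, fitted to the 17 libraries. Between uteri 60 of the 89 members differed at an edgeR adjusted p under 0.05, or 67.4%, where 49.1% of all 15187 genes tested were called. All 89 members passed the filter on low counts. Uteri 1, 2, 3 and 5 also supplied the choosing libraries, and libraries of a uterus resemble each other, so this test is not fully independent of the choice. ENSBTAG00000015441 was among the 60 (F = 7.66, edgeR adjusted p = 0.00945), as was ENSBTAG00000021306 (F = 4.34, edgeR adjusted p = 0.042). The most abundant member was too (F = 16.6, edgeR adjusted p = 0.00137). The share above the background rested on uterus 1. Without Control 1 the count was 36 of 89, or 40.4%, against 37.2% of all genes, and without both libraries of uterus 1 it was 28 of 87, or 32.2%, against 38.2%. With all 23 libraries, the 6 that chose the genes included, it was 16 of 89, or 18.0%, against 54.8%.

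Treatment was tested in the same 17 libraries. Adding interferon tau left the members without a called difference: edgeR called 0 of 89 higher and 0 lower, where 3.28% of all genes were called higher and 0.0658% lower. DESeq2 also called 0, and 3.92% of all genes in either direction. At an unadjusted p under 0.05 edgeR had 1 member, or 1.12%, and 8.36% of all genes. The members' median log2 fold change was 0.15, from -0.71 to 1.37, and 57 of 89 were above 0, against a median of -0.02 over all genes. With all 23 libraries, which adds the high IFNT 2 and the low Control 3, the median was 1.27. It was 0.82 without Control 1, 0.44 without uterus 1 and -0.30 without uterus 10. In those fits 0 members were called, against 3.07%, 2.56% and 2.93% of all genes. Without Control 1, 18 of 89 members had an unadjusted p under 0.05 by edgeR, against 1437 of 15156 genes. The spread in the 17-library fit was wide: the median standard error was 0.64 for members and 0.22 for all genes. ENSBTAG00000015441 was at 0.22 ± 1.12 on the log2 scale (SE; adjusted p = 0.999 by edgeR) and ENSBTAG00000021306 at 0.38 ± 1.39 (SE; adjusted p = 0.999 by edgeR).

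Within uteri the step from Control to IFNT had no common direction. Where neither library had chosen the genes, the members' median difference in log2 CPM was -0.53 in uterus 1 and 0.10 in uterus 5. It was 0.62 in uterus 4 and 1.71 in uterus 10. In uterus 10, 88 of 89 members were higher in the IFNT explant, and in uterus 1, 78 of 89 were lower. Each count comes from 1 pair of explants, and the members vary together, so they are not separate results. The share over all genes is not given for these counts, so they do not show a trait particular to the members. With the uterus number as a block, 1 member was called higher with IFNT, where 5.33% of all genes were called in either direction. This was ENSBTAG00000015311, whose log2 difference was 1.01 ± 0.25 (SE; adjusted p = 0.0383 by edgeR), against 0.93 ± 0.53 (SE; adjusted p = 0.796 by edgeR) without the block. Its Control levels were 3.55 CPM in uterus 1, 1.41 CPM in uterus 2, 1.35 CPM in uterus 5, 0.875 CPM in uterus 4 and 0.869 CPM in uterus 10. Its IFNT levels were 6.61 CPM in uterus 1, 2.76 CPM in uterus 10, 2.48 CPM in uterus 5, 1.13 CPM in uterus 4 and 0.993 CPM in uterus 3. The groups overlapped, but IFNT exceeded Control in CPM in each of the 4 uteri with both. In uterus 4 this rested on 29 reads with IFNT against 27 in Control.

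With an AI conceptus edgeR called 0 of 89 members higher and 0 lower than Control, where 2.3% of all genes were called higher and 0.316% lower. DESeq2 called 0. At an unadjusted p under 0.05 edgeR had 5 members, or 5.62%, and 11.7% of all genes. The members' median log2 fold change was -0.91, from -4.48 to 0.65, with 8 of 89 above 0, against -0.00 for all genes (-0.0018). The most abundant member was at 572 CPM in AI 4, 399 CPM in AI 2 and 299 CPM in AI 3. It was at 1916 CPM in Control 1, 647 CPM in Control 4, 622 CPM in Control 2, 559 CPM in Control 5 and 554 CPM in Control 10. The median moved to -0.18 without uterus 1 and to -0.02 with the uterus as a block, and 0 members were called in either. Of all genes 2.14% were called without uterus 1 and 12% with the block, in either direction. The smallest member adjusted p with the block was 0.0531 by edgeR. Without uterus 10 the median was -1.085, and 0 members were called, against 2.62% of all genes.

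With an IVF conceptus edgeR called 0 members higher and 1 lower than Control, where 2.74% of all genes were called higher and 0.494% lower. DESeq2 also called 1, and 4.83% of all genes in either direction. The median log2 fold change was -0.94, from -6.11 to 0.88, with 6 of 89 above 0, against -0.02 for all genes. This sign holds only for the 17 libraries: with all 23, which adds the high IVF 1 and IVF 5 and the low Control 3, the median was 1.27. In the 17-library fit 19 members, or 21.3%, had an unadjusted p under 0.05, against 13.0% of all genes. The median was -0.25 without uterus 1, a fit to 15 libraries, and -0.20 with the uterus as a block, both nearer 0. Without uterus 10 it was further from 0, at -1.33. When single libraries were left out it lay between -1.2 and -0.26.

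The called member was ENSBTAG00000000703, a gene with few reads. In Control it had 15 reads (Control 1), 13 (Control 2), 5 (Control 4), 4 (Control 5) and 2 (Control 10), which makes 39 reads or 0.304 CPM over the group. The 4 IVF libraries of the 17 had 0 reads. Among the IVF libraries that chose the genes, IVF 1 had 88 reads (2.87 CPM), IVF 5 had 232 (9.87 CPM) and IVF 2 had 0. IVF 1 and IVF 5 thus stood above Control 1 at 0.771 CPM, the highest Control. Control 3, left out in the same way, had 0 reads. A limit of 3 reads over the 4 IVF libraries of the 17 is 0.0228 CPM. Against it, the gene was at least 13.3-fold lower in those 4 than in pooled Control. That limit covers counting error only, and pooling ignores the uterus. Control 1 and Control 2 have no IVF library of their uterus among the 17. In uteri 4 and 10, which have both, Control had 5 and 2 reads and IVF had 0 in each. The fitted log2 value of -6.11 ± 1.55 (SE; adjusted p = 0.0484 by edgeR) depends on the prior count and gives no size. The call was lost with all 23 libraries, with the uterus as a block (edgeR adjusted p = 0.171), without uterus 1 and without uterus 10. It was also lost in 14 of 17 fits that each left out 1 library. These were the fits without Control 1, 2, 4 or 5, without IFNT 1, 4 or 5, and without any 1 of the AI or IVF libraries. IFNT explants had 19 reads (IFNT 10), 14 (IFNT 1), 9 (IFNT 5), 2 (IFNT 4) and 0 (IFNT 3).

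**Figure D5:**
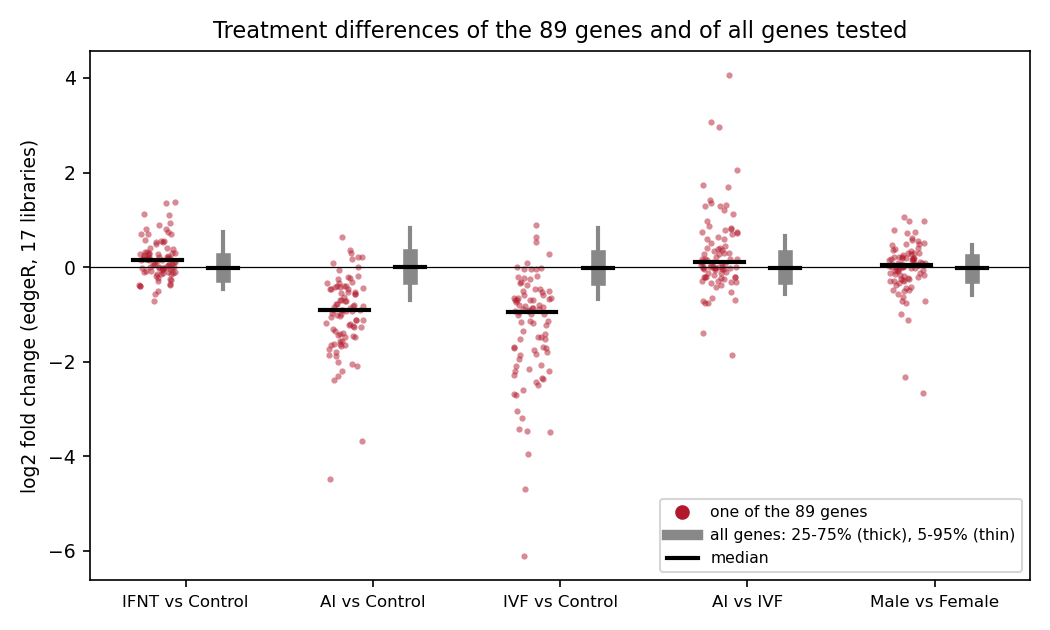
Log2 fold changes from the edgeR fits to the 17 libraries that did not choose the genes. Each red point is 1 of the 89 genes, grey bars give the quartiles (thick) and the 5% to 95% range (thin) of all 15187 genes tested, and black lines are medians. The members lie around 0 for IFNT, mostly below it for AI and IVF against Control, with medians of -0.91 and -0.94 (1.27 for IVF with all 23 libraries), and spread more widely than all genes in each comparison.

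Conceptus origin and sex gave no called member. Between AI and IVF edgeR called 0 of 89 and 0% of all genes. DESeq2 also called 0 members, and 0.00658% of all genes. The median log2 fold change was 0.10, and -2.20 with all 23 libraries, and 1 member had an unadjusted p under 0.05, or 1.12%, against 4.19% of all genes. Between explants with a male and a female conceptus edgeR called 0 of 89 and 0% of all genes. DESeq2 called 0 members and 0% of all genes. With edgeR 0 members had an unadjusted p under 0.05, against 1.36% of all genes. The median log2 fold change of male over female was 0.04. The share of counts ran from 0.114% to 0.372% with a male conceptus (n = 4) and from 0.152% to 0.317% with a female one (n = 3). These groups overlapped. In all 23 libraries the median log2 fold change of male over female was 2.54. The conceptus was male in both conceptus libraries of the 3 high ones and female in both of the 3 low ones. Sex and the choice of libraries therefore cannot be told apart in that value.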

How the data were processed

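Messenger RNA of 23 explants was sequenced from stranded TruSeq libraries, per the labels' protocols. Per the submitters' processing notes, the tools were HISAT2, StringTie and edgeR and the build was UMD3.1. Their roles, the counting step and its strand setting were not stated in any source used. The deposited table holds read counts per gene, whole numbers that are not normalized, so overlapping genes and close paralogs are uncertain. The symbol table used here matched 0 of its identifiers. CPM were computed from column totals, and log2 CPM with a prior count of 2.

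The 89 members, the lists and the tests were chosen with earlier results of these data known. Fits were run in R 4.3.3 with edgeR 4.0.16 on the 17 libraries that did not choose the members. Genes passed filterByExpr, totals were TMM-scaled, and the quasi-likelihood test was adjusted by Benjamini-Hochberg over all 15187 genes tested. Group was the only term, and uterus number was added for the test between uteri. DESeq2 1.42.0, other scalings, no filter, all 23 libraries, a uterus block and leaving out each library were alternatives, and leaving out uterus 1 or 10 was added after seeing the data. The code was checked on simulated data.

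The gene lists planned for naming members need symbols and were not used. The identifiers printed are the 2 members with the largest ratio, low levels being taken as at least 3 reads, and the 2 called in a treatment comparison, which were singled out after their values were seen. The member with the smallest ratio, among those with a read in a low library, is described without its identifier.

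Deviations from group means, compared across genes, gave r between 0.27 and 0.72 (median 0.40) in the 15 pairs of libraries sharing a number, all above 0.1. The 92 pairs with unlike numbers had r between -0.40 and 0.37 (median -0.08), and 16 of them were above 0.1. The ranges overlapped, but libraries sharing a number were more alike in the median. The block lowered the biological coefficient of variation from 32.8% to 17.6% and the residual degrees of freedom from 13 to 7. Nothing says that explants of a group came from separate animals beyond this number. In all 253 pairs of libraries counts differed beyond sampling noise (chi-square per degree of freedom from 21.3 to 357.5).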

Additional observations from a re-analysis of the deposited data

Results flagged for a closer look

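Among the 5 Control explants that did not choose the genes, the share of counts taken by the 89 genes was 1.31% in Control 1, far above the 0.273% to 0.437% of the other 4. By this gap test chance marks about 1 in 20 groups.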

How the results depend on the processing

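With the uterus number as a replicate block, 1 member was called with IFNT in place of 0, and 0 with IVF in place of 1, and no other call changed. Of all genes 5.33% were called with IFNT and 4.64% with IVF under the block. The IVF count was also 0 with all 23 libraries and without uterus 1 or 10, and lay between 0 and 1 when single libraries were left out. The count between uteri was 16 with all 23 libraries, 28 without uterus 1, and between 36 (without Control 1) and 72 (without IFNT 10) when single libraries were left out, in place of 60. The other comparisons stayed at 0 called members when single libraries were left out. The cause of these moves was not tested. The rule gave 147 genes at a 4-fold threshold, 53 at a mean of at least 5 CPM, and between 97 and 113 when 1 of the 6 choosing libraries was left out. Median-ratio scaling, unscaled totals and no filter changed no call of a treatment. Unscaled totals moved the median of all genes to -0.14 with IFNT, -0.12 with AI and -0.22 with IVF, where the members' medians were 0.01, -1.02 and -1.14. Members under 3 reads in a library numbered up to 12, and differences there were not detectable at this depth.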
